A study of Mus musculus with 31 samples.

Results

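Both groups compared here were XX mouse gonads at embryonic day 14.5 that had lost Sox9 from their somatic cells, and they differed in whether Ctnnb1 was lost as well. The 4 XX DKO arrays (Ctnnb1f/f; Sox9f/f) were set against the 4 XX Sox9KO arrays (Ctnnb1+/f; Sox9f/f), 8 of the 31 arrays of the series, chosen by their titles. Every embryo of the series carried Sf1-cre+/Tg, which expresses Cre recombinase where Sf1 is active, that is in somatic cells of the gonad and not in germ cells or blood cells. The XX Sox9KO reference thus kept 1 floxed and 1 intact Ctnnb1 allele. For comparison, 4 XX Ctnnb1KO arrays (Ctnnb1f/f; Sox9+/f) stood against 4 XX control arrays (Ctnnb1+/f; Sox9+/f), and 3 XY DKO arrays against 4 XY Sox9KO arrays of the same genotypes as their XX counterparts. XY control gonads served only to say which genes differ between testis and ovary. The question was which effects of Ctnnb1 loss in XX gonads need no Sox9.

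Each array was a separate pair of gonads freed from the mesonephros, with 40 ng of RNA amplified before labelling. The values are array signals on a linear scale, and differences are given in log2 units of signal + 16, a scale that understates the change of genes with low signal; the value after ± is then the standard error (SE). A gene was called at a limma Benjamini-Hochberg adjusted p under 0.05 over the 11779 genes tested. In whole gonads, fewer cells of a type and less RNA per cell cannot be told apart.

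In canonical WNT signalling, secreted WNT ligands and R-spondins act through Frizzled, LRP and LGR receptors to stabilise beta-catenin, the protein made from Ctnnb1, which then works with TCF and LEF factors at target genes. In the fetal ovary, WNT4 and RSPO1 act through this route and oppose the testis programme, while FOXL2 acts in pregranulosa cells. In the testis, SOX9 drives Sertoli cell differentiation, and Sertoli cells in turn direct Leydig cells and male germ cells.

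Sox9 transcript was low on both sides of the comparison. At the strongest of its 3 probe sets the signal was 27.1, 50.9, 6.3 and 9.7 in XX DKO, against 21, 62.5, 21.8 and 11.1 in XX Sox9KO, and the groups overlapped. XX Ctnnb1KO, with 1 intact Sox9 allele, averaged 108.1 and ran from 82.8 to 136.5, above the 62.5 of the highest Sox9-deficient XX array. XX control averaged 119.8 and ran from 11.7 to 174.3, and XY control averaged 929.1. The other 2 probe sets did not separate XX Ctnnb1KO from XX DKO. At 1 of them XX Ctnnb1KO ran from 54.5 to 77.5, XX DKO from 23.4 to 62.3 and XX Sox9KO from 44.2 to 51.9. The other averaged 9.7 in XX Ctnnb1KO, 17.9 in XX DKO and 18.4 in XY control. Ctnnb1 signal itself did not follow the genotype: its strongest probe set averaged 13147.2 ± 354.2 in XX DKO and 13816.1 ± 405.9 in XX Sox9KO (SD, n = 4 each), a difference of -0.07 ± 0.06 log2 units (SE; limma adjusted p = 0.517). The arrays of the 2 groups overlapped at all 3 of its probe sets. It is not known here whether any of these probe sets lies in the deleted part of the gene, so their level checks no label. Xist, transcribed from the inactive X chromosome, was 7939.2 or higher on all 8 arrays at its strongest probe set. The Y-linked gene Eif2s3y was called higher at background level, at 30.3, 25.4, 19.3 and 17 in XX DKO, against 16.3, 14.8, 2 and 10.8 in XX Sox9KO, against a mean of 3116.1 in XY Sox9KO, and the call was lost under 10 of the 17 alternative settings. Among the XX Ctnnb1KO arrays, replicate 4 lacked Xist (51.1 at that probe set) and showed no Y-linked signal, so the main values that use that group are also given without it.

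Loss of Ctnnb1 on the Sox9-deficient background changed 1591 of 11779 genes (13.5%). Of these, 867 rose (7.36%) and 724 fell (6.15%), and 307 changed at least 2-fold, 180 of them upward and 127 downward. The median over all genes tested was 0.01 log2 units. The 2 groups of arrays did not overlap for 1973 genes (16.8%), and 1297 genes (11%) were both called and free of overlap. Leaving out any 1 of the 8 arrays gave between 1189 and 1679 calls, and 1679 was the count without XX Sox9KO replicate 3, which stood apart on germ cell genes. Gene lists for the cell types and pathways of the fetal gonad held 340 symbols, and their measured members are those above the array median on at least 3 of the 31 arrays. Counts of list members called are to be read against the 7.36% of all genes that rose and the 6.15% that fell. By these lists, most pregranulosa genes fell, part of the Sertoli, steroidogenic and activin genes rose, and 13 of 16 macrophage genes rose. The number of pan-germ cell genes that rose, 11 of 19, depended on single arrays.

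**Figure D1:**
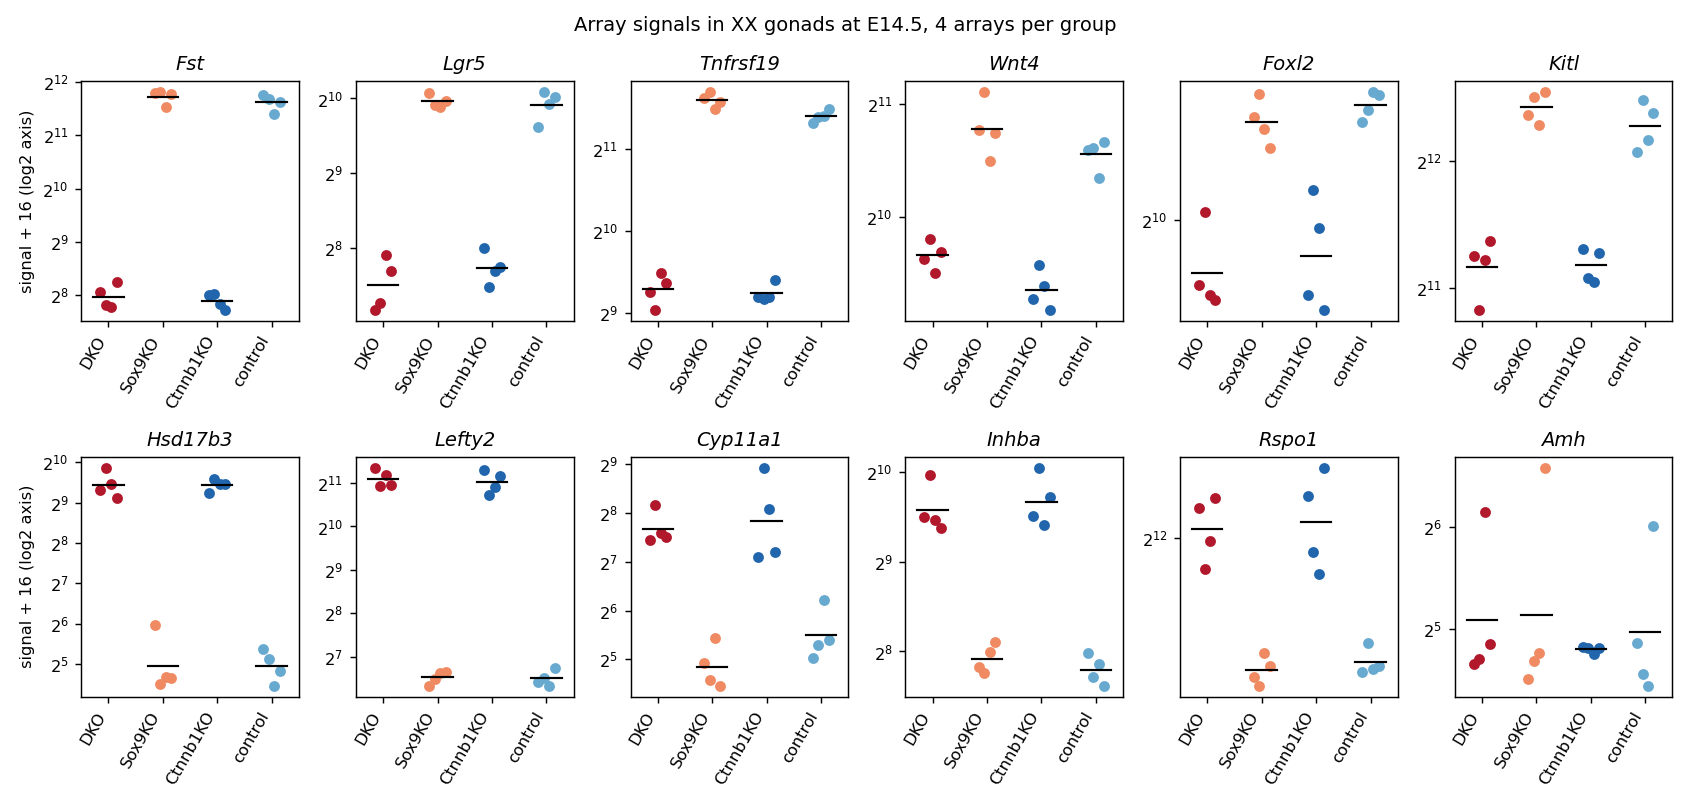
Signal + 16 on a log2 axis for 12 genes in the 4 XX groups. Each point is 1 array and each black line the mean of the log2 values. For the 6 genes of the upper row, and for Hsd17b3, Lefty2, Cyp11a1, Inhba and Rspo1, the XX DKO arrays lie apart from the XX Sox9KO arrays, and Amh overlaps.

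Ovarian genes fell widely. Of the 21 pregranulosa and ovary genes, 18 were measured; 16 of these were called lower and 2 higher, against 6.15% and 7.36% of all genes, and their median was -0.92 log2 units. Fst, which encodes the activin antagonist follistatin, had a signal of 249.7, 208.3, 202.8 and 288.9 in XX DKO, against 3529.1, 3585.9, 2926.7 and 3468.4 in XX Sox9KO. The highest XX DKO array was thus far below the lowest XX Sox9KO array, a difference of -3.75 ± 0.13 log2 units (SE; limma adjusted p = 1.31e-19). Lgr5, a receptor for R-spondins, read 127.2, 136.8, 223 and 191.1 in XX DKO, against 1063.6, 943.3, 932.3 and 984.8 in XX Sox9KO. The 2 groups lay far apart, by -2.46 ± 0.16 log2 units (SE; limma adjusted p = 9.46e-13). Akr1c14, a steroid reductase, read 321.6, 338.1, 258.9 and 316.1 in XX DKO, against 1383.9, 1192.7, 1122.7 and 1421.1 in XX Sox9KO, with no overlap and a difference of -2.0 ± 0.13 log2 units (SE; limma adjusted p = 9.46e-13). Kitl, the ligand of the KIT receptor on germ cells, read 2424.6, 1796.9, 2373.3 and 2629.7 in XX DKO, against 5248.2, 5807.8, 4985.3 and 5965.6 in XX Sox9KO, lower on every XX DKO array but still abundant there (-1.26 ± 0.11 log2 units, SE, limma adjusted p = 7.97e-10). Wnt4 read 777.6, 878, 711.8 and 812.1 in XX DKO, against 1726.2, 2185.1, 1427 and 1692.8 in XX Sox9KO and differed by -1.12 ± 0.11 log2 units (SE; limma adjusted p = 1.4e-08). The ligand was thus lower on every XX DKO array. Foxl2, a transcription factor of pregranulosa cells, read 774.1, 1040.7, 742.4 and 726.6 in XX DKO, against 1530.2, 1681.4, 1455.5 and 1349.6 in XX Sox9KO, without overlap, a difference of -0.87 ± 0.15 log2 units (SE; limma adjusted p = 0.000116). Its mean in XX DKO remained far above the 50.9 of XY control. Bmp2, a secreted signal of the fetal ovary, differed by -0.83 ± 0.14 log2 units (SE; limma adjusted p = 8e-05).

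The 2 pregranulosa list members that rose were Rspo1 and Pdgfa. Rspo1, the secreted activator of WNT signalling in the fetal ovary, read 4524.7, 3645.5, 4025.3 and 4689.7 in XX DKO, against 2490.8, 2412.5, 2715.1 and 2592.7 in XX Sox9KO, higher on every XX DKO array, by 0.72 ± 0.10 log2 units (SE; limma adjusted p = 4.24e-06). Pdgfa, a growth factor also made by Sertoli cells, differed by 0.68 ± 0.17 log2 units (SE; limma adjusted p = 0.00479).

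Part of the canonical WNT targets fell in the same gonads. Of 17 measured canonical WNT target genes, 8 fell and 2 rose, against 6.15% and 7.36% of all genes, with a median of -0.35 log2 units. Tnfrsf19, a receptor of the tumour necrosis factor family, read 595.5, 506.6, 700.6 and 643.8 in XX DKO, against 3145.5, 3313, 2870.7 and 3033.3 in XX Sox9KO, apart on every array, by -2.31 ± 0.09 log2 units (SE; limma adjusted p = 4.51e-18). Axin2, a feedback inhibitor of the pathway, read 868.4, 779.6, 899.9 and 854.3 in XX DKO, against 1554, 1671.3, 1667.4 and 1439.2 in XX Sox9KO, again with no overlap (-0.88 ± 0.12 log2 units, SE, limma adjusted p = 3.17e-06). The other feedback inhibitors Rnf43 and Nkd2 differed by -1.24 ± 0.23 and -0.92 ± 0.14 (limma adjusted p = 0.000197 and 1.33e-05). Lef1, which encodes a DNA-binding partner of beta-catenin, differed by -0.56 ± 0.17 log2 units (SE; limma adjusted p = 0.0302), with overlapping arrays. Its call was lost without XX Sox9KO replicate 2 or 3 or XX DKO replicate 1 or 2, and on the 8 arrays alone (limma adjusted p = 0.0655). The 2 that rose were Dkk1, a secreted inhibitor of the pathway, at 0.97 ± 0.27 log2 units (SE; limma adjusted p = 0.0126), and Prickle1, of the planar cell polarity branch, at 0.40 ± 0.10 log2 units (SE; limma adjusted p = 0.00325); the count of 2 was 1 without XX Sox9KO replicate 1 or XX DKO replicate 4. At the probe sets of highest variance 6 of 15 WNT targets fell and 1 rose, and Prickle1 differed by 0.24 and was not called (limma adjusted p = 0.563). Among 31 measured ligands, receptors and inhibitors of the pathway, 8 fell, against 6.15% of all genes, with a median of -0.03. The 3 that rose are near the 7.36% of all genes and are no result about the list. Besides Wnt4, Lgr5 and Rspo1, Wls, which is needed for WNT secretion, read 574.2, 542.8, 645.5 and 751.6 in XX DKO, against 1012.7, 928.2, 980.4 and 1044.8 in XX Sox9KO and differed by -0.65 ± 0.11 log2 units (SE; limma adjusted p = 7.7e-05). With the probe set of highest variance 6 of 26 ligands, receptors and inhibitors fell and 1 rose.

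Of the 12 largest falls without overlap, the first was that of Calb1, a calcium-binding protein, at 34.9, 27, 34.3 and 56.9 in XX DKO, against 1176.3, 1324.2, 577.6 and 1051.2 in XX Sox9KO (-4.24 ± 0.26 log2 units, SE, limma adjusted p = 2.76e-13). XX Sox9KO replicate 3 was the lowest of its group for this gene, yet far above every XX DKO array. Thbs2, a matrix glycoprotein, read 260.3, 305.9, 206.7 and 224.5 in XX DKO, against 1946.8, 1402.3, 1363.8 and 1674.3 in XX Sox9KO (-2.60 ± 0.15 log2 units, SE, limma adjusted p = 1.97e-13). The noncoding RNA Rmst differed by -2.68 ± 0.22, Tmem171 by -3.62 ± 0.32, Tmem174 by -3.00 ± 0.34, Insyn2b by -2.53 ± 0.18 and Trim66 by -2.46 ± 0.26 log2 units (SE, limma adjusted p from 6.23e-12 to 6.96e-08). Tmem171 and Tmem174 both lie on chromosome 13, and in XX DKO no array exceeded 12.1 for Tmem171 or 52.5 for Tmem174. The adhesion gene Cntn4 read 258.8, 183.8, 172.1 and 187.4 in XX DKO, against 1095.4, 1257.4, 914.2 and 1178.7 in XX Sox9KO (-2.39 ± 0.16 log2 units, SE, limma adjusted p = 3.04e-12), and the neuronal calcium sensor gene Vsnl1 read 72.1, 62.9, 60.9 and 51.1 in XX DKO, against 445.9, 286.6, 573.2 and 309.3 in XX Sox9KO (-2.39 ± 0.23 log2 units, SE, limma adjusted p = 5.74e-09). Neither gene showed overlap between the groups.

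Of the 12 largest falls, 5 had an entry in the RefSeq promoter table (build GRCm38.p6), and 3 of the 5 held the TCF/LEF core motif CTTTGAT or its reverse complement ATCAAAG in the 250 bases before the transcription start. These 3 windows are shown because they pair a measured fall with letters that the partners of beta-catenin can bind, and the capitals mark the motif. The Cntn4 window is chr6:106118692-106118941 on the plus strand. It lies inside the gene, annotated from 105677632 to 106700141, and so before an internal start. The Vsnl1 window is chr12:11435652-11435901 on the minus strand. That of Tnfrsf19 is chr14:61037988-61038237 on the minus strand, at 1 of its annotated starts.
Cntn4: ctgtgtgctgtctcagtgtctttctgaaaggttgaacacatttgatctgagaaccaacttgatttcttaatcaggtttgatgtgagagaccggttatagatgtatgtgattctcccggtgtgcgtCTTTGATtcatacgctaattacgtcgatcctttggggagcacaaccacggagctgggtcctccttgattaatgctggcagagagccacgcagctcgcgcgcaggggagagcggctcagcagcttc
Vsnl1: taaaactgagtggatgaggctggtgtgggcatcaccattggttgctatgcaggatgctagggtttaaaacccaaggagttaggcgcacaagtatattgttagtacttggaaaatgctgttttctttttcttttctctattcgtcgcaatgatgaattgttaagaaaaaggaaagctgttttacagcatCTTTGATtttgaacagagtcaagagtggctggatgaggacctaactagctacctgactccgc
Tnfrsf19: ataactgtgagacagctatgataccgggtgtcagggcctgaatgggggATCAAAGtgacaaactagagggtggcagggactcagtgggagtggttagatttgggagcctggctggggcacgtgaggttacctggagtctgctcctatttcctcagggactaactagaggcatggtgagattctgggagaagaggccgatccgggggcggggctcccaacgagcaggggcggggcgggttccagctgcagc
The motif began 125 bases before this internal start of Cntn4, 62 before the start shown for Vsnl1 and 202 before that shown for Tnfrsf19. Of the 9 largest rises in that table, 0 held it. Over all tested genes with an entry, 275 of 12242 windows held the motif on either strand (2.25%), against 25 of 770 windows of genes that fell (3.25%) and 15 of 889 windows of genes that rose (1.69%). Among genes that fell at least 2-fold the share was 2.52% of 119 windows, and among genes that rose at least 2-fold 2.26% of 177, both near that of all genes. These shares count windows, whereas the 3 of 5 and 0 of 9 count genes with the motif in any window. By gene, 263 of the 9545 tested genes with an entry held it. So did 3 of the 90 that fell at least 2-fold, which are the 3 shown, and 3 of the 135 that rose at least 2-fold. A match is a description of the letters and not of binding, and no chance test was made.

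**Figure D2:**
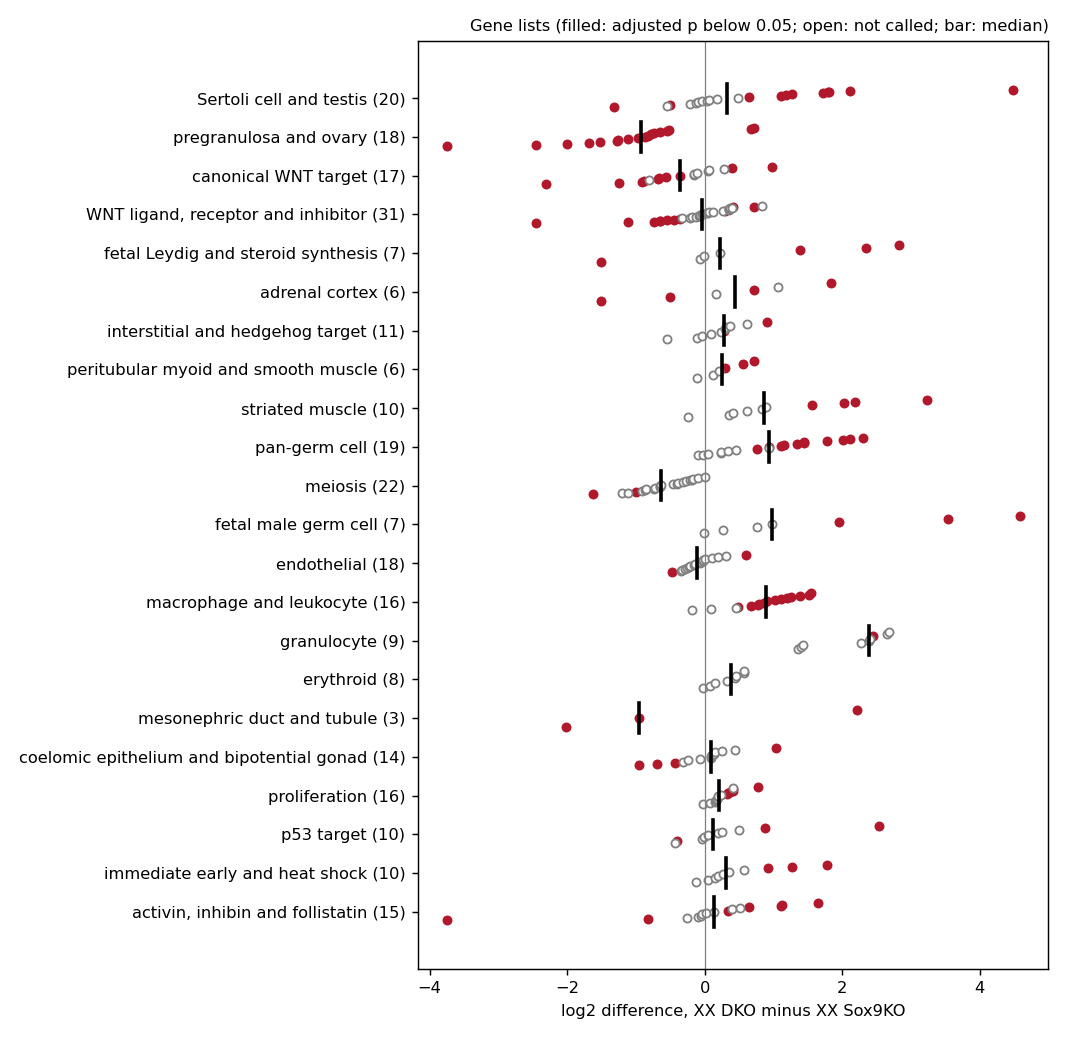
Log2 difference of XX DKO minus XX Sox9KO for every measured member of 22 gene lists, with the number measured in parentheses. Filled points were called, open points were not, and the bar is the list's median: pregranulosa genes lie left of 0 except 2, and 13 of 16 macrophage genes are filled to the right.

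Testis genes rose in part. Of the 23 listed genes of Sertoli cells and testis, 20 were measured. Of these, 9 rose, against 7.36% of all genes, and 2 fell, near the 6.15% of all genes, and the median was 0.33. Hsd17b3, which forms testosterone, read 618.8, 919.4, 688.4 and 534.4 in XX DKO, against 47, 6.5, 9.6 and 9.2 in XX Sox9KO, far apart even though XX Sox9KO replicate 1 was above the rest of its group (4.49 ± 0.25 log2 units, SE, limma adjusted p = 5.2e-14). Cbln4, a secreted cerebellin, read 330.9, 271.7, 251.6 and 237.5 in XX DKO, against 61.1, 58.6, 44.9 and 39.9 in XX Sox9KO (2.11 ± 0.18 log2 units, SE, limma adjusted p = 5.46e-10), and its relative Cbln1 read 1619.2, 888.8, 852.2 and 813.5 in XX DKO, against 175, 101.8, 170.7 and 61.3 in XX Sox9KO (2.92 ± 0.22 log2 units, SE, limma adjusted p = 2.82e-11). Dhh, the hedgehog ligand of Sertoli cells, read 166.5, 195.4, 155 and 185.3 in XX DKO, against 49.8, 46.7, 42.1 and 30.7 in XX Sox9KO (1.72 ± 0.17 log2 units, SE, limma adjusted p = 5.8e-09), without overlap but far below the mean of 2247.7 in XY control. Aard went the other way. Its difference of XY control minus XX control was 2.35, yet it read 510.1, 647.1, 528.4 and 417.6 in XX DKO, against 1550.9, 1168, 1176.7 and 1400.1 in XX Sox9KO (-1.31 ± 0.13 log2 units, SE, limma adjusted p = 5.74e-09). Nr0b1, a nuclear receptor with roles in both gonads, fell by 0.50 ± 0.12 (limma adjusted p = 0.00394). Amh, the Sertoli hormone that removes the Müllerian ducts, read 9.3, 10.2, 54.4 and 13 in XX DKO, against 6.8, 9.8, 11.3 and 79.3 in XX Sox9KO, overlapping, with -0.04 ± 0.38 log2 units (SE; limma adjusted p = 0.959). No XX DKO or XX Sox9KO array was above 79.3, against a mean of 214.8 in XY control. That mean was little above the median signals of the XY control arrays, 149.6 to 167.8, so this probe set read weakly even in testis. Dmrt1, which acts in Sertoli and germ cells, was called higher with overlapping arrays (593.8, 359, 700.8 and 477.2 in XX DKO, against 182.7, 204, 522.4 and 139.2 in XX Sox9KO; 1.12 ± 0.30 log2 units, SE, limma adjusted p = 0.00966). Replicate 3 of XX Sox9KO, described with the germ cells, was the array that overlapped, and the call was lost without XX Sox9KO replicate 4 (limma adjusted p = 0.0634).

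Part of the activin and inhibin family rose while the antagonist Fst fell. Inhba, the activin A and inhibin A beta subunit, read 708.1, 978.9, 688.2 and 648.8 in XX DKO, against 210.8, 201.4, 239.1 and 258.9 in XX Sox9KO (1.65 ± 0.15 log2 units, SE, limma adjusted p = 7.43e-10). Inha, the shared inhibin alpha subunit, read 1465.2, 1433.4, 1106.7 and 1135.2 in XX DKO, against 663.9, 603, 498.1 and 563.5 in XX Sox9KO (1.12 ± 0.12 log2 units, SE, limma adjusted p = 4.11e-08), and Tgfbr3, the inhibin co-receptor betaglycan, read 2171.3, 1660.3, 2258.3 and 2387.9 in XX DKO, against 1026.8, 986.9, 953.5 and 840.1 in XX Sox9KO (1.13 ± 0.12 log2 units, SE, limma adjusted p = 3.34e-08). None of the 3 overlapped. In all, 5 of 15 measured family members rose, against 7.36% of all genes, and 2 fell, against 6.15%, with a median of 0.13. The 2 were Fst and Bmp2, already described with the ovarian genes.

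Steroid genes moved in both directions. Among the fetal Leydig and steroidogenic genes, 7 were measured, 3 rose and 1 fell, with a median of 0.23. Star, which carries cholesterol into the mitochondrion, read 756, 851.5, 660.8 and 757.9 in XX DKO, against 234.4, 267.2, 307.7 and 309.9 in XX Sox9KO (1.39 ± 0.12 log2 units, SE, limma adjusted p = 4.21e-10). Cyp17a1, needed for androgen synthesis, read 636.2, 875, 401.8 and 549.3 in XX DKO, against 83.7, 150.1, 98.8 and 93.5 in XX Sox9KO (2.34 ± 0.25 log2 units, SE, limma adjusted p = 3.86e-08). Cyp11a1, the side-chain cleavage enzyme, read 157.4, 272.4, 176.4 and 166.9 in XX DKO, against 14.5, 7.9, 27 and 5.9 in XX Sox9KO (2.83 ± 0.31 log2 units, SE, limma adjusted p = 3.85e-08), but its other measured probe set differed in the opposite direction. All 3 stood clear of overlap while remaining low beside XY control, where Cyp17a1 averaged 13128.1. Hsd3b1 fell: it read 550.2, 565.5, 552.8 and 518.2 in XX DKO, against 1576, 1883.8, 1128.5 and 1893.5 in XX Sox9KO (-1.51 ± 0.17 log2 units, SE, limma adjusted p = 9.89e-08). It belongs to a family of near-identical genes that a probe set may read together. Of 6 measured adrenal cortex genes, 2 rose and 2 fell, with a median of 0.45. The 2 that fell were Hsd3b1 and Nr0b1, already counted above. Cyp11b1, the last enzyme of corticosterone synthesis, read 75.8, 88.4, 39.1 and 42.1 in XX DKO, against 8.2, 1.6, 0.8 and 10.3 in XX Sox9KO (1.84 ± 0.29 log2 units, SE, limma adjusted p = 2.99e-05), and Mc2r, the receptor for ACTH, differed by 0.72 ± 0.19 log2 units (SE; limma adjusted p = 0.00911). Both genes were of low signal in both groups, and on the 8 arrays alone Mc2r was not called (limma adjusted p = 0.0749).

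Germ cell genes fell into 3 lists, and for 2 of them the counts depended on single arrays. The 7 measured fetal male germ cell genes gave 3 rises and a median of 0.97. Lefty2, an antagonist of Nodal, read 2606.7, 1940.8, 2299.6 and 1959 in XX DKO, against 64, 73.5, 82.2 and 84.7 in XX Sox9KO, a rise of 4.58 ± 0.16 log2 units (SE; limma adjusted p = 1.61e-19). Lefty1 read 268.9, 266.3, 213.5 and 165.6 in XX DKO, against 5.7, 6, 5.6 and 1.8 in XX Sox9KO (3.54 ± 0.32 log2 units, SE, limma adjusted p = 1.54e-09), and the ligand Nodal read 284.8, 235.3, 299.9 and 258.5 in XX DKO, against 53.1, 50.9, 60.6 and 64.8 in XX Sox9KO (1.96 ± 0.25 log2 units, SE, limma adjusted p = 6.21e-07). The groups did not overlap for any of these genes, although Lefty1 and Lefty2 are close paralogs whose probe sets may share transcripts. Tdgf1, the Nodal co-receptor, lay near background at 23.7, 26.2, 42.4 and 25.9 in XX DKO, against 0.5, 8.5, 14.1 and 6.7 in XX Sox9KO (0.97 ± 0.36 log2 units, SE, limma adjusted p = 0.0703). With a pseudocount of 1 it was called, at 2.22 (limma adjusted p = 0.0154), and the list gave 4 rises and a median of 2.21. With a pseudocount of 64 the median was 0.60, and the 3 rises held.

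Of 19 measured pan-germ cell genes, 11 rose and 0 fell, with a median of 0.93, and those 11 were led by pluripotency genes. Pou5f1, a core pluripotency factor, read 1626.2, 1441.6, 1779.2 and 1364.4 in XX DKO, against 273, 237.1, 918.9 and 234.2 in XX Sox9KO (2.11 ± 0.35 log2 units, SE, limma adjusted p = 5.51e-05). Dppa3 read 7404.5, 6335.9, 8803.2 and 6738.2 in XX DKO, against 1922.1, 1491.4, 4959.9 and 1352.2 in XX Sox9KO (1.78 ± 0.30 log2 units, SE, limma adjusted p = 5.07e-05). Sox2 read 824.5, 739.3, 1067.1 and 951.1 in XX DKO, against 318.5, 192, 719.7 and 223.3 in XX Sox9KO (1.44 ± 0.30 log2 units, SE, limma adjusted p = 0.000785), and Dppa2 read 1113.5, 566.6, 1676.8 and 1331 in XX DKO, against 91.3, 125.3, 981.4 and 149 in XX Sox9KO (2.31 ± 0.49 log2 units, SE, limma adjusted p = 0.00121). Replicate 3 of XX Sox9KO was the highest of its group for all 4 and overlapped the XX DKO arrays for Dppa2; Nanog gave the same picture (2.02 ± 0.45 log2 units, SE, limma adjusted p = 0.00168). Ddx4, the germ cell RNA helicase, was not called, at 0.46 ± 0.18 log2 units (SE; limma adjusted p = 0.0943). The count of 11 was 13 without XX Sox9KO replicate 3, 7 without XX Sox9KO replicate 1 or XX DKO replicate 4, and 6 without XX Sox9KO replicate 2, XX Sox9KO replicate 4 or XX DKO replicate 3. It was 9 when only the 8 arrays compared were fitted. The median ran from 0.75 to 1.35 over the arrays left out. Relative to the XX control mean, the median of the 19 genes was 0.38, 0.27, 0.86 and 0.76 on the XX DKO arrays, against -0.75, -0.86, 0.36 and -0.85 on the XX Sox9KO arrays, of which 3 thus lay below the XX control mean.

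Meiosis genes showed wide spread. Of 22 measured, 2 fell, near the 6.15% of all genes, and 0 rose, against 7.36% of all genes. The count of 2 falls is thus no result about the list. Of the 22 differences 21 were negative, with a median of -0.64. Rec8, the meiotic cohesin, did not overlap, at 1198.3, 1118.8, 1291.2 and 1123.3 in XX DKO, against 1958.2, 2331.5, 2570.2 and 2670.7 in XX Sox9KO (-0.99 ± 0.16 log2 units, SE, limma adjusted p = 2.77e-05). Mei1 read 63.9, 217.7, 84.2 and 91.5 in XX DKO, against 795.3, 269.2, 187.3 and 364.6 in XX Sox9KO (-1.62 ± 0.42 log2 units, SE, limma adjusted p = 0.00819), with XX DKO replicate 2 above the lowest XX Sox9KO array. Stra8, the retinoic acid response gene at entry into meiosis, read 2680.9, 5026, 3278.5 and 1996.9 in XX DKO, against 4851.4, 3900.2, 6116.1 and 4718.3 in XX Sox9KO and was not called (-0.65 ± 0.32 log2 units, SE, limma adjusted p = 0.194), and the same replicate 2 was the highest XX DKO array. Without that replicate 8 meiosis genes fell, and without XX Sox9KO replicate 1 the count was 1, where Mei1 was not called (limma adjusted p = 0.0607). The median ran from -0.90 without XX DKO replicate 2 to -0.40 without XX DKO replicate 4. On the scale of medians relative to XX control, the 22 genes gave -0.81, 0.32, -0.50 and -1.15 on the XX DKO arrays and 0.52, -0.16, -0.29 and 0.19 on the XX Sox9KO arrays.

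**Figure D3:**
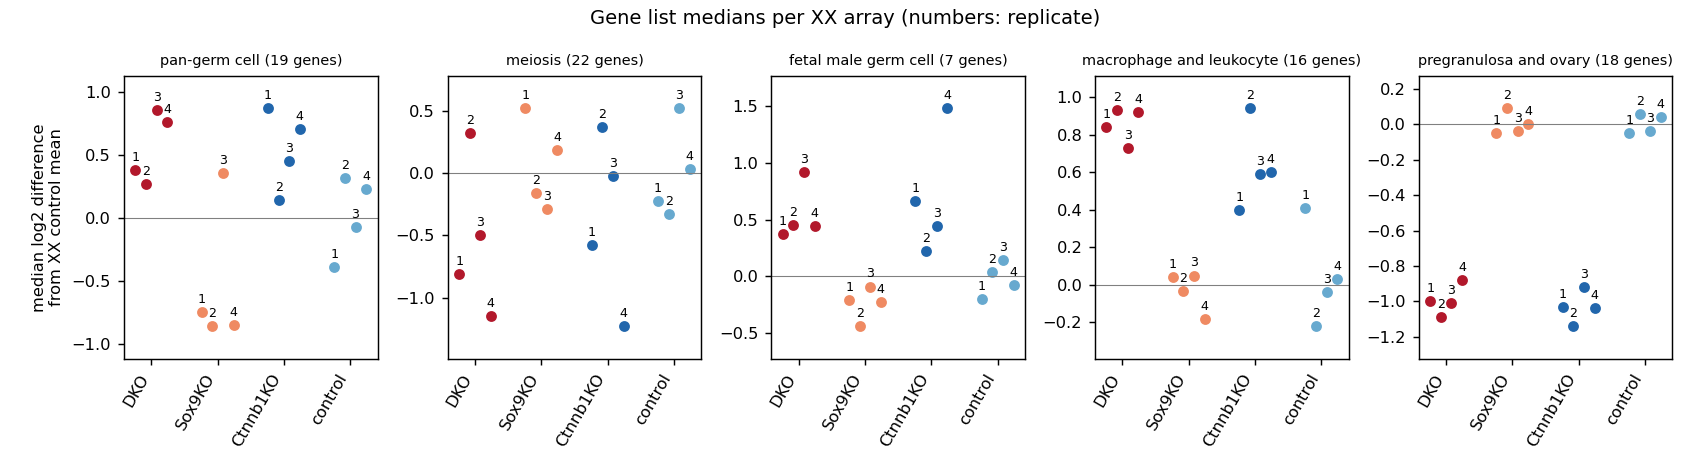
Median log2 difference from the XX control mean over the measured genes of 5 lists, for each XX array, with replicate numbers above the points. Pregranulosa and macrophage medians separate XX DKO from XX Sox9KO on every array, XX Sox9KO replicate 3 lies at 0.36 for pan-germ cell genes while the other 3 lie at -0.75 or below, and XX DKO replicate 2 lies above the other XX DKO arrays for meiosis genes.

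Macrophage and leukocyte genes rose widely. Of 16 measured, 13 rose and 0 fell, with a median of 0.89, and the summed signal of the list ran from 11846 to 14991 in XX DKO and from 6715 to 7049 in XX Sox9KO. Ctss, a lysosomal protease, read 1124.7, 1377.3, 1027 and 1326.3 in XX DKO, against 635.3, 409.8, 552.6 and 422.1 in XX Sox9KO (1.25 ± 0.16 log2 units, SE, limma adjusted p = 1.11e-06). The adaptor gene Tyrobp read 1285.1, 1389.2, 1131.8 and 1302.5 in XX DKO, against 604.4, 566.2, 517.8 and 493.1 in XX Sox9KO (1.2 ± 0.18 log2 units, SE, limma adjusted p = 8.4e-06), the complement gene C1qb read 2699, 2397.9, 1811.4 and 2237.8 in XX DKO, against 1055.7, 1165, 1089.5 and 1115 in XX Sox9KO (1.02 ± 0.15 log2 units, SE, limma adjusted p = 9.44e-06), and the leukocyte antigen gene Cd52 read 289.3, 322.7, 304.6 and 341.3 in XX DKO, against 74.2, 115.5, 105.3 and 106.5 in XX Sox9KO (1.52 ± 0.23 log2 units, SE, limma adjusted p = 1.05e-05). All 4 were free of overlap. Granulocyte genes were higher by a larger median, 2.39 over 9 measured genes, but 1 was called, against 7.36% of all genes. The summed signal of the list ran from 11754 to 28143 in XX DKO, from 611 to 7675 in XX Sox9KO and from 382 to 14552 in XX control. The gene called was Ltf, lactoferrin, at 175.1, 268.2, 456.9 and 485.1 in XX DKO, against 18.1, 103.4, 50.7 and 38.3 in XX Sox9KO (2.44 ± 0.82 log2 units, SE, limma adjusted p = 0.0437). The count was 0 without XX Sox9KO replicate 1 or 3 or XX DKO replicate 3 or 4, 2 without XX Sox9KO replicate 2 and 4 without XX Sox9KO replicate 4. Ltf itself was not called without XX Sox9KO replicate 1, 3 or 4 or XX DKO replicate 2, 3 or 4, so some of these counts were of other genes. The count for the list also varied with the processing. That count was 8 of 9 when only the 8 arrays compared were fitted, 4 with the replicate block, 3 with quantile normalisation, and 0 with a pseudocount of 1, without a filter or without a trend. S100a8 read 7472.1, 3734.6, 5702.2 and 9739.5 in XX DKO, against 144.1, 1992.5, 1220.7 and 2354.2 in XX Sox9KO and was not called (2.67 ± 0.97 log2 units, SE, limma adjusted p = 0.0657), but it was on the 8 arrays alone (limma adjusted p = 0.0179). Stfa2l1, a cystatin of myeloid cells from a family of similar genes, read 1308.8, 1176.1, 1743.9 and 2363.1 in XX DKO, against 59.6, 439.1, 325.2 and 253.2 in XX Sox9KO (2.76 ± 0.87 log2 units, SE, limma adjusted p = 0.0316). Its call was lost without XX Sox9KO replicate 1 or 4 or XX DKO replicate 1, 3 or 4. None of the 8 measured erythroid genes was called at a median of 0.39, and 0 of them had an unadjusted p under 0.05 in limma. Of 18 measured endothelial genes 1 rose and 1 fell, near the 7.36% and 6.15% of all genes, which is no result about that list: Pecam1, also made by germ cells, differed by 0.60 ± 0.14 log2 units (SE; limma adjusted p = 0.00393) and Emcn by -0.47 ± 0.08 log2 units (SE; limma adjusted p = 0.000126). The part of these blood and vessel cell genes in the results on gonadal genes was not tested.

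Striated muscle genes formed another set of rises, with 4 of 10 measured called higher and a median of 0.86. Myl1, a myosin light chain, read 1501.3, 1012.3, 1141.5 and 1104.4 in XX DKO, against 103.8, 176.1, 77.8 and 105 in XX Sox9KO (3.23 ± 0.27 log2 units, SE, limma adjusted p = 2.61e-10). The troponin genes Tnnc1 and Tnnt2 differed by 2.19 ± 0.28 and 2.03 ± 0.27, and the sarcomere gene Actn2 by 1.56 ± 0.35 (limma adjusted p = 6.46e-07, 1.37e-06 and 0.00172). Ky, a protease of skeletal muscle outside that list, read 290.8, 377.1, 371.4 and 402.1 in XX DKO, against 56.1, 14.8, 22.7 and 6.7 in XX Sox9KO (3.32 ± 0.27 log2 units, SE, limma adjusted p = 1.01e-10). The arrays of these 5 genes did not overlap. The 4 calls held without any 1 of the 8 arrays, while the median was 0.52 without XX DKO replicate 1 and 1.17 without XX DKO replicate 4. Relative to the XX control mean, the median of the list was 1.12 on XX DKO replicate 1, from 0.07 to 0.50 on the other 3 XX DKO arrays, and from -0.94 to -0.01 on the XX Sox9KO arrays. Peritubular myoid cell and smooth muscle genes gave 3 rises among 6 measured, with a median of 0.26, among them Myh11 at 0.72 ± 0.12 log2 units (SE; limma adjusted p = 3.47e-05) and Acta2 at 0.56 ± 0.12 log2 units (SE; limma adjusted p = 0.000958). Interstitial and hedgehog target genes gave 2 rises among 11, with a median of 0.28. Pdgfra, a receptor of interstitial progenitors, read 4378.9, 3893.9, 4061.5 and 3468.2 in XX DKO, against 2107.3, 2464.3, 2034.3 and 1790.8 in XX Sox9KO (0.91 ± 0.11 log2 units, SE, limma adjusted p = 4.9e-07), and Nr2f2, a nuclear receptor of the interstitium, differed by 0.28 ± 0.09 log2 units (SE; limma adjusted p = 0.0317). The count was 3 without XX Sox9KO replicate 2 or XX DKO replicate 3 and 1 without any 1 of the other 6 arrays. It was 3 with the replicate block, 1 with quantile normalisation and 0 with the probe set of highest variance, where Pdgfra differed by 0.26 (limma adjusted p = 0.43) and Nr2f2 by 0.41 (0.264). The hedgehog receptor gene Ptch1, itself a hedgehog target, differed by 0.09 ± 0.09 log2 units (SE; limma adjusted p = 0.553) and the hedgehog effector gene Gli1 by 0.61 ± 0.29 log2 units (SE; limma adjusted p = 0.173), and neither was called.

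Other large rises were those of Cnmd, a cartilage glycoprotein, at 3.00 ± 0.31 log2 units (SE; limma adjusted p = 1.55e-08), Prune2 at 2.58 ± 0.19 log2 units (SE; limma adjusted p = 2.37e-11), Cphx3, a homeobox gene with near-identical copies, at 2.64 ± 0.34 log2 units (SE; limma adjusted p = 1.06e-06), and Nupr1, a stress-induced nuclear protein, at 2.54 ± 0.33 log2 units (SE; limma adjusted p = 7.96e-07). Each was free of overlap. Of 8 mesonephric duct and tubule genes 3 were measured, and 1 rose and 2 fell: Lhx1 read 161.4, 148.2, 216.2 and 235.7 in XX DKO, against 32.4, 26.4, 25.5 and 26.4 in XX Sox9KO (2.22 ± 0.29 log2 units, SE, limma adjusted p = 1.4e-06), Pax8 read 31.6, 109.1, 53.8 and 62.7 in XX DKO, against 264.1, 404.4, 252.3 and 256.6 in XX Sox9KO (-2.01 ± 0.25 log2 units, SE, limma adjusted p = 5.83e-07) and Emx2, also a gene of the bipotential gonad, differed by -0.95 ± 0.14 log2 units (SE; limma adjusted p = 1.1e-05). Lhx1 was thus the only member that rose, and no group overlapped another for these 3. Among 14 coelomic epithelium and bipotential gonad genes, 3 fell, against 6.15% of all genes, and 1 rose, near the 7.36% of all genes, with a median of 0.09. The keratin genes Krt8 and Krt18 fell by 0.70 ± 0.16 and 0.44 ± 0.12, and Six4 rose by 1.04 ± 0.28 (limma adjusted p = 0.00189, 0.0116 and 0.012). The fall of Krt8 was not called with the probe set of highest variance (limma adjusted p = 0.08), nor that of Krt18 without XX DKO replicate 1 (0.0539) or the rise of Six4 without XX Sox9KO replicate 4 (0.0616). Of 16 proliferation genes, 6 rose, with a median of 0.21, led by the mitotic kinase gene Plk1 at 0.78 ± 0.18 log2 units (SE; limma adjusted p = 0.002). The count was 1 without XX Sox9KO replicate 1 or 4 or XX DKO replicate 1, and 2 without XX DKO replicate 3. Among 10 p53 target genes 2 rose, against 7.36% of all genes, and 1 fell, near the 6.15% of all genes, with a median of 0.13. Pmaip1, a BH3-only death gene, read 182.9, 227, 179.9 and 172.6 in XX DKO, against 20.4, 16.2, 22 and 19 in XX Sox9KO (2.54 ± 0.25 log2 units, SE, limma adjusted p = 6.47e-09), while Perp and Cdkn1a differed by 0.87 ± 0.28 and -0.41 ± 0.14 (limma adjusted p = 0.0314 and 0.0465). The count of p53 target rises was 3 without XX Sox9KO replicate 3 and 1 without any other array except XX DKO replicate 1. Perp itself lost its call without any single array except XX Sox9KO replicate 3. The fall of Cdkn1a was not called without XX Sox9KO replicate 2, 3 or 4 or XX DKO replicate 1, 2 or 3. Without XX DKO replicate 2 the count of falls stayed at 1, through another gene. Immediate early genes and heat shock genes, known to respond to handling as well, gave 3 rises among 10, with a median of 0.31. Egr1, a growth factor response gene, read 1345.2, 1729.5, 1420 and 1727.8 in XX DKO, against 390.2, 395.6, 605.3 and 389.1 in XX Sox9KO (1.79 ± 0.12 log2 units, SE, limma adjusted p = 2.57e-12), and Egr2 and Nr4a1 differed by 1.27 ± 0.20 and 0.92 ± 0.17 (limma adjusted p = 2.22e-05 and 0.000237).

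The effects were next set beside those of Ctnnb1 loss in XX gonads that kept a Sox9 allele, XX Ctnnb1KO against XX control, a comparison that shares no array with the first. Sox9 signal in that comparison was on average not higher after Ctnnb1 loss. Its strongest probe set averaged 108.1 in XX Ctnnb1KO and 119.8 in XX control, against 929.1 in XY control. The other 2 averaged 60.6 and 9.7 in XX Ctnnb1KO and 71 and 12 in XX control. Between XX Ctnnb1KO and XX control limma called 1195 genes (10.1%), 567 higher (4.81%) and 628 lower (5.33%). In the Sox9-deficient gonads 1181 of these 1195 genes moved in the same direction (98.8%), 917 were called in that direction (76.7%) and 0 were called in the opposite one. Without XX Ctnnb1KO replicate 4, 967 genes were called with a Sox9 allele, of which 955 moved in the same direction without Sox9 (98.8%) and 773 were called in it (79.9%). The line through 0 had a slope of 0.99. Within directions, the correlation across genes was 0.92 among the 567 and 0.91 among the 628, a description over genes that are not independent. Read the other way, 917 of the 1591 genes called without Sox9 were called with it (57.6%) and 1552 shared the sign (97.5%), with a slope of 0.84. Without XX Ctnnb1KO replicate 4 the slopes were 0.98 and 0.82 and the correlations 0.91 and 0.90, and 773 of 1592 genes called without Sox9 were called with it (48.6%), fewer than before.

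For genes changed at least 2-fold the shares were higher. Of 251 genes that changed at least 2-fold with a Sox9 allele present, 241 were called in the same direction without Sox9 (96%), and for 247 the log2 effect was at least 0.5 times as large (98.4%). The ratio of the effect without Sox9 to that with it had a median of 1.02, with quartiles of 0.90 and 1.15. The other 10 genes were Mpo, Phlda2, Rhox6, Ighm, Dock4, Ankrd29, Prokr2, Ddx60, Rassf4 and Fez1, named here after their values were seen. All 10 kept their sign, and their log2 differences without Sox9 ran from -0.97 for Phlda2 to 2.28 for Mpo. From the other side, 274 of the 307 genes changed at least 2-fold without Sox9 were also called with it (89.3%), and 32 of the remaining 33 shared its sign. Without XX Ctnnb1KO replicate 4, 242 of 251 genes were called in the same direction (96.4%), for 245 the effect was at least 0.5 times as large (97.6%), the median ratio was 1.0, with quartiles of 0.87 and 1.16, and 251 of 308 genes were also called with a Sox9 allele (81.5%).

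Whether the 2 effects differed was tested in the same fit. Limma called 0 of 11779 genes (0%), with 472 at an unadjusted p under 0.05. The 95% interval of that difference, for a single gene without adjustment, had a median half-width of 0.38 log2 units. After adjustment over 11779 genes, differences well above that size could also go uncalled. Cotl1, for example, differed by 0.82 (95% interval 0.38 to 1.26) and was not called. The count was 0 under every alternative setting run, also without XX Ctnnb1KO replicate 4, where 538 genes had an unadjusted p under 0.05. For Fst the effect was -3.75 without Sox9 and -3.73 with it, a difference of -0.03 (95% interval -0.39 to 0.34; limma adjusted p = 0.9998). For Hsd17b3 the effects were 4.49 and 4.51, a difference of -0.02 (95% interval -0.75 to 0.71; limma adjusted p = 0.9998). For Lefty2 they were 4.58 and 4.53, with 0.05 (95% interval -0.41 to 0.51; limma adjusted p = 0.9998), and for Foxl2 both were -0.87, with 0.00 (95% interval -0.45 to 0.45; limma adjusted p = 0.9999). Rspo1 gave 0.72 and 0.71, with 0.01 (95% interval -0.29 to 0.30; limma adjusted p = 0.9998). The intervals lie well inside the size of the effects for Fst, Hsd17b3 and Lefty2 and are wide beside it for Foxl2, and none of them shows that the effects were equal. Without XX Ctnnb1KO replicate 4 the differences were -0.08 for Fst, -0.01 for Hsd17b3, 0.10 for Lefty2, -0.10 for Foxl2 and 0.10 for Rspo1.

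The 5 genes with the lowest unadjusted p in this test were Tspo, a mitochondrial cholesterol-binding protein, Cotl1, an actin-binding protein, Recql4, a DNA helicase, Plekhh3 and Syde1. Tspo differed by 0.42 ± 0.15 without Sox9 and by -0.40 ± 0.15 with it (SE), and Cotl1 by 0.40 ± 0.15 and -0.42 ± 0.15. Their unadjusted p was 0.000496 and 0.000639, and the limma adjusted p was 0.9998 for all 5. Among listed genes, Dmrt1 differed by 1.12 ± 0.30 without Sox9 and by 0.15 ± 0.30 with it (unadjusted p = 0.0287), Wls by -0.65 ± 0.11 and -0.21 ± 0.11 (unadjusted p = 0.00831), C1qb by 1.02 ± 0.15 and 0.43 ± 0.15 (unadjusted p = 0.0096), and Mc2r by 0.72 ± 0.19 and -0.06 ± 0.19 (unadjusted p = 0.00716). None passed the adjustment (limma adjusted p = 0.9998 for each), so no gene was shown to respond differently with and without Sox9. Without XX Ctnnb1KO replicate 4 the unadjusted p was 0.000305 for Tspo, 0.000286 for Cotl1, 0.0135 for Dmrt1, 0.00927 for Wls, 0.014 for C1qb and 0.0249 for Mc2r, and the limma adjusted p was 0.9992 for each. Dmrt1 also varied with the array: XX Sox9KO averaged 262.1 with replicate 3 at 522.4, against 491 in XX control.

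**Figure D4:**
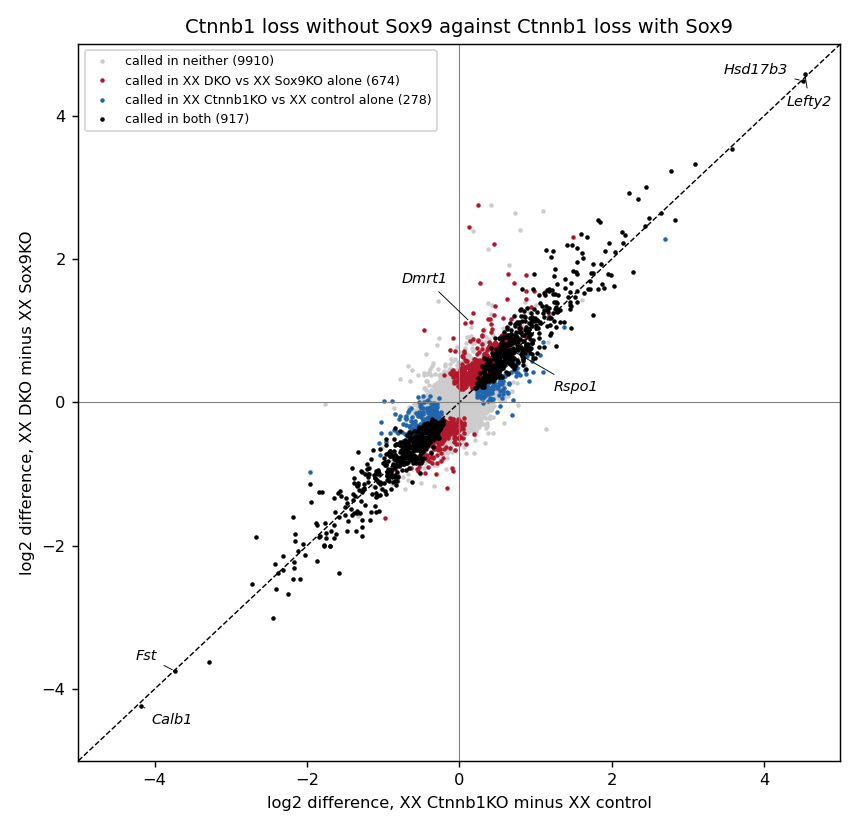
Log2 difference of XX DKO minus XX Sox9KO against that of XX Ctnnb1KO minus XX control, 1 point per gene for 11779 genes, with the dashed line at equal effects. The 917 genes called in both, in black, follow the line on both sides of 0, with Fst and Calb1 at the low end and Hsd17b3 and Lefty2 at the high end.

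Counts by list were then set side by side for the 2 backgrounds. Over all genes 7.36% rose and 6.15% fell without Sox9, against 4.81% and 5.33% with a Sox9 allele. The 2 counts of a list thus do not share 1 share over all genes. Pregranulosa genes fell in 16 of 18 cases without Sox9 and in 15 with it, with medians of -0.92 and -1.04. Sertoli genes rose in 9 of 20 cases without Sox9 and in 8 with it, and canonical WNT targets fell in 8 of 17 and in 7. Macrophage genes rose in 13 of 16 cases without Sox9 and in 10 with it, and male germ cell genes rose in 3 of 7 in both. Striated muscle genes rose in 4 of 10 in both. Pan-germ cell genes rose in 11 of 19 cases without Sox9 and in 4 with it, and 1 of the 19 had an unadjusted p under 0.05 for the difference. Without XX Ctnnb1KO replicate 4, the counts with a Sox9 allele were 15 falls for pregranulosa genes, 8 rises for Sertoli genes, 7 falls for WNT targets, 8 rises for macrophage genes, 3 each for striated muscle and male germ cell genes, and 0 for pan-germ cell genes. The 3 activin and inhibin genes Inhba, Inha and Tgfbr3 differed by 1.65, 1.12 and 1.13 without Sox9 and by 1.87, 1.06 and 1.24 with it, or by 1.85, 1.09 and 1.15 without XX Ctnnb1KO replicate 4.

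To place the change between ovary and testis, autosomal genes at least 2-fold apart between XY control and XX control were taken, and the 8 arrays compared here took no part in that choice. Limma called 2125 of all genes higher (18%) and 2338 lower (19.8%) in XY control than in XX control. Of 505 testis genes, 210 rose in XX DKO (41.6%) and 15 fell, with a median difference of 0.41 log2 units. Of 491 ovary genes, 161 fell (32.8%) and 13 rose, with a median of -0.41. Among 7069 genes without a control difference, 308 rose (4.36%) and 203 fell (2.87%), with a median of 0.02. Seen from the 867 rises, 210 were testis genes and 13 ovary genes, 311 differed less than 2-fold between the controls, 308 did not differ, and 25 were on the sex chromosomes or unplaced. Lefty2, Hsd17b3, Cbln1 and Cyp11a1 among the largest rises were testis genes, whereas Ky, Nupr1, Prune2 and Myl1 were not: their difference of XY control minus XX control was 0.83, 0.36, -0.60 and -1.28. Of the 12 largest falls, Vsnl1 was higher in control testis, at 2.13, and the other 11 were higher in control ovary.

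On a scale from control ovary at 0% to control testis at 100%, XX DKO arrays lay at 34.02%, 20.00%, 27.64% and 34.80% over the ovary genes, against -5.02%, 2.07%, 8.62% and -1.18% for XX Sox9KO. Over the testis genes XX DKO lay at 30.62%, 29.70%, 23.36% and 28.27%, against 0.48%, 2.35%, 0.51% and -3.73% for XX Sox9KO. The means were 29.12 ± 6.87% and 27.99 ± 3.23% for XX DKO over ovary and testis genes, and 1.12 ± 5.78% and -0.10 ± 2.57% for XX Sox9KO (SD, n = 4 each). The groups did not overlap in either set. XX Ctnnb1KO lay at 27.99 ± 9.40% and 25.19 ± 2.19% (SD, n = 4), overlapping XX DKO in both sets, and its replicate 4 lay at 37.90% and 25.38%. Each value averages over genes, and the germ cell genes described above are among them.

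**Figure D5:**
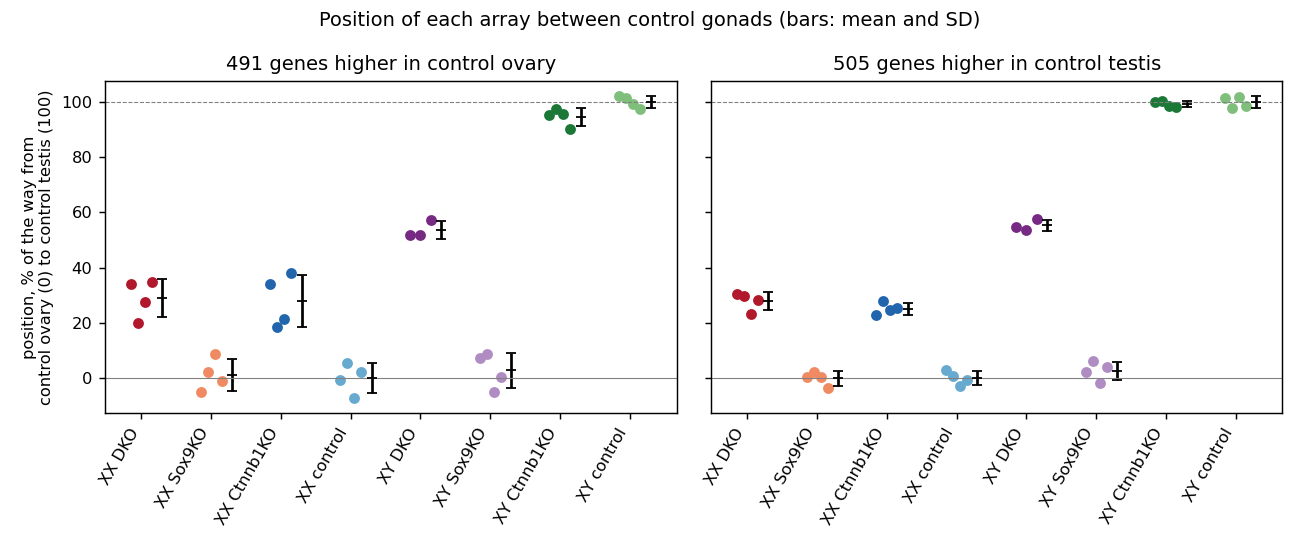
Position of each array between control ovary (0%) and control testis (100%) over 491 genes higher in control ovary (left) and 505 higher in control testis (right). Points are arrays and bars give the mean and SD of a group: XX DKO arrays lie between 20.0 and 34.8%, all above the XX Sox9KO arrays.

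In XY gonads without Sox9, loss of Ctnnb1 moved the arrays further along this scale. XY DKO stood at 53.60 ± 3.27% and 55.33 ± 1.99% (SD, n = 3) over ovary and testis genes, against 2.84 ± 6.44% and 2.62 ± 3.36% for XY Sox9KO (SD, n = 4). Of the 1591 genes called in XX, 1006 were called in the same direction in XY (63.2%), 1494 shared the sign (93.9%) and 3 were called in the opposite direction. The 1006 genes were 39.1% of the 2573 called in XY. The difference of the XX effect minus the XY effect was called for 111 genes (0.942%), 26 with a more positive effect in XX and 85 with a more negative one, and that count was 62 without XY DKO replicate 4, 66 without XX DKO replicate 3 and 167 without XY Sox9KO replicate 2. Hsd3b1 differed by -1.51 ± 0.17 in XX, with means of 546.7 in XX DKO and 1620.4 in XX Sox9KO, and by 1.27 ± 0.19 in XY, with means of 3985.7 in XY DKO and 1648.7 in XY Sox9KO (difference -2.78, limma adjusted p = 6.82e-08). Cyp11a1 differed by 2.83 ± 0.31 in XX and by 6.51 ± 0.33 in XY (difference -3.68, limma adjusted p = 1.59e-05), and Cyp17a1 by 2.34 ± 0.25 and 5.08 ± 0.27 (difference -2.74, limma adjusted p = 5.31e-05). Hao2, a peroxisomal hydroxy acid oxidase, differed by 0.12 ± 0.18 in XX and by 2.86 ± 0.19 in XY (difference -2.74, limma adjusted p = 7.18e-08). Gsta2, a glutathione transferase, and Pnmt, which makes adrenaline, completed the 5 lowest p, with differences of -2.33 and -2.14 (limma adjusted p = 1.59e-05 and 1.59e-05). Dhh and Inhba rose in both and less in XX, with differences of -1.41 and -1.64 (limma adjusted p = 0.00186 and 2.82e-05). Lefty2 differed by 4.58 ± 0.16 in XX and 4.70 ± 0.17 in XY, and Fst by -3.75 ± 0.13 and -3.32 ± 0.14. For neither did the difference pass the test, at -0.11 and -0.43 (limma adjusted p = 0.855 and 0.263).

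Just inside the threshold of 0.05 lay Setd3, Arid1b and Anapc11, with log2 differences of -0.27, -0.23 and 0.31 (limma adjusted p = 0.0499, 0.0499 and 0.0498). Just outside lay Trpm7, Atp5g1 and Afap1, with -0.22, 0.40 and 0.31 (limma adjusted p = 0.05, 0.0501 and 0.0501).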

How the data were processed

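The deposited values are intensity signals on a linear scale, 1 for each of 45101 probe sets of a mouse expression array. MAS5 is named for this step in the submitters' processing notes, without version or settings. Arrays have no read depth, and precision is limited by their number. Of the probe sets, 34945 named 1 gene in the platform annotation, 932 several and 9160 none; those with several or none were not used.

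Each gene was represented by its probe set of highest mean signal across the 31 arrays, and genes above the array median on at least 3 arrays were tested, 11779 of 18193. Signals + 16 were put on the log2 scale and fitted with limma 3.58.1 (R 4.3.3, lmFit and trended eBayes, 8 group means, 23 residual degrees of freedom) with Benjamini-Hochberg adjustment. Normalisation was that of the authors. All 8 groups shared 1 estimate of the spread, and groups came from the sample titles. The fit was tested on simulated data before use. The TCF/LEF motif was searched on both strands of RefSeq promoter windows.

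The gene lists, like the 8 arrays compared, were chosen with earlier results of these data known. Genes named were the 4 members of each list with the lowest adjusted p, the 12 largest rises and 12 largest falls without overlap and above the array median, the 5 lowest p of each test of a difference of effects, the 3 genes on either side of the threshold, and Sox9, Ctnnb1, Xist and Eif2s3y; a few of these are given only within counts. Foxl2, Amh, Dmrt1, Ptch1, Gli1, Stra8, Ddx4, Lef1, Nanog, Bmp2, Dkk1, Prickle1, Pdgfa and the 10 genes not called without Sox9 were named after their values were seen. Arrays are separate embryos' gonads as far as the labels say, and p-values measure the spread between them. Same-numbered XX DKO and XX Sox9KO arrays correlated between -0.11 and 0.30 in their deviations, against -0.39 to 0.46 for other-numbered ones. For XX DKO with XX Ctnnb1KO the ranges were -0.09 to 0.54 and -0.50 to 0.32, and with XY DKO 0 to 0.36 and -0.29 to 0.24. They were -0.45 to 0.13 and -0.26 to 0.46 for XX Ctnnb1KO with XX control. For XX Sox9KO with XY Sox9KO they were -0.22 to -0.14 and -0.14 to 0.24. Whether replicate numbers mark a shared batch was not tested. Alternatives were quantile normalisation, other pseudocounts, filters and probe sets, no trend, a replicate block, only the arrays of the comparison, and each array left out.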

Additional observations from a re-analysis of the deposited data

Results flagged for a closer look

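The XX DKO and XX Sox9KO groups were examined, for 111 named genes and for the 2 positions between ovary and testis, for an array whose gap to its nearest neighbour made up nearly the whole range of its group of 4, and 22 of 226 groups held one, all of them for genes. Chance gives about 5% for independent values of normal spread. These are linear signals, some near background, of genes that can move together on 1 array, so 22 is no test against that share. Of these 22 arrays, 8 were XX Sox9KO replicate 3, which was high for Pou5f1 (918.9, others at most 273), Dppa2 (981.4, others at most 149), Dppa3 (4959.9, others at most 1922.1), Nanog (345.2, others at most 87.6), Dmrt1 (522.4, others at most 204), Cphx3 (76.6, others at most 19.3), Egr1 (605.3, others at most 395.6) and Ptch1 (2346.5, others at most 1939.5). In the same group Hsd17b3 (47) and Lhx1 (32.4) were high in replicate 1, Pax8 (404.4) in replicate 2 and Amh (79.3) in replicate 4, while Lefty1 (1.8) was low in replicate 4.

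In XX DKO, Cbln1 was high in replicate 1 (1619.2, others at most 888.8). Replicate 2 was high for Cyp11a1 (272.4) and Foxl2 (1040.7). Replicate 3 was high for Tdgf1 (42.4) and Amh (54.4) and low for Nr2f2 (5524.5) and Plekhh3 (233.2). Replicate 4 was high for Tmem174 (52.5) and Trpm7 (1041.5).

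For 13 named genes the effect of Ctnnb1 loss without Sox9 differed between XX and XY by limma's test of the difference. The log2 effect in XX minus that in XY was -3.68 for Cyp11a1, -2.78 for Hsd3b1, -2.74 for Cyp17a1, -2.74 for Hao2, -2.33 for Gsta2, -2.14 for Pnmt and -1.02 for Star. It was -1.41 for Dhh, -1.85 for Gli1, -1.64 for Inhba and -1.60 for Pmaip1. It was positive for Rec8, at 0.998, and for Krt18, at 0.72.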

How the results depend on the processing

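The number of arrays, 4 a group, limits what could be called, and low signals have no measured floor in these files. The count of genes called for Ctnnb1 loss without Sox9 was 1591 and stayed between 1254 and 1626 under 9 alternative settings, and between 1189 and 1679 with 1 array left out. With the replicate number as a block it was 1569, of which 1519 were among the 1591. With a Sox9 allele present the count ran from 967 to 1138 with 1 array left out, against 1195. The interaction had 0 calls in limma throughout. The difference between XX and XY, 111 genes, had 53 calls when fitted on its own arrays alone, where fewer samples estimate the spread, 126 with the block, and 62 to 167 with 1 array left out. The share of genes that kept their direction, 98.8%, was 99.6% on the arrays of each comparison alone and 97.8 to 99.3% with 1 array left out. The difference in position of XX DKO minus XX Sox9KO, 27.99 percentage points over ovary genes and 28.08 over testis genes, became 34.87 and 24.25 over genes at least 4-fold apart between the controls, and 24.28 over testis genes with a pseudocount of 64; the cause was not tested. Of 111 named genes 93 were called, 72 of them under each of the 17 settings in which they were tested, and none changed sign while called. Some named genes were not tested with the filter of at least 8 arrays or with the probe set of highest variance.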
